A study of Homo sapiens with 4 samples.

Results

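The lysosomal hydrolases and membrane proteins described here are 55 genes of the 63677 in the deposited table, chosen by symbol from a list of 13 proteases, 13 glycosidases, 5 sulfatases, 9 lipid hydrolases and lipid-binding cofactors, 3 phosphatases and nuclease genes, 9 membrane proteins and 3 sorting receptors. A member symbol stood on 75 rows, and for the 6 members with several rows the row with the highest mean was kept. They were compared in MDA-MB-231 cells, an established human line of triple-negative breast cancer (TNBC), after transfection with a control siRNA (siCt) or a pooled siRNA that targets the receptor tyrosine kinase AXL (siAxl). Each group held 2 libraries of total RNA, and all cells were of this 1 line, so the comparison shows transcript levels after a partial loss of AXL in that line. Neither the time after transfection nor whether the libraries came from separate cultures is given, and p-values then measure the spread between these libraries, which may be technical. In bulk RNA, fewer cells of a type and less RNA per cell cannot be told apart.

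Lysosomes are acidic compartments in which hydrolases break down proteins, glycans, sulfated sugars, lipids and nucleic acids. Most soluble hydrolases receive a mannose 6-phosphate tag in the Golgi and are carried onward by the mannose 6-phosphate receptors M6PR and IGF2R, while sortilin (SORT1) carries others. The membrane is lined by heavily glycosylated proteins such as LAMP1 and LAMP2. Many lysosomal genes carry a so-called CLEAR element near their start, an E-box (CACGTG) with flanking bases that is bound by the factors TFEB, TFE3 and MITF.

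The starts of the lysosomal genes are shown first because that E-box is the sequence feature by which the group is known. RefSeq promoter windows, which run from 250 bases before to 50 after the start, were given for 42 of the 55 genes. CACGTG, which is its own reverse complement, was found in 14 of the 42 genes (33.3%), against 8.77% of 27305 genes with a window. A gene was counted if any of its windows held the word. By window the shares were 22.7% of 66 windows and 7.26% of 35116. The longer word GTCACGTG was read on both strands (CACGTGAC on the other) and always holds the shorter one. It was found in 9 of the 42 genes (21.4%), against 2.93% of all, and by window in 15.2% against 2.4%. These 9 were ARSB, CLN3, CTSA, CTSD, GAA, GALNS, IGF2R, LAMP1 and MCOLN1, of which 3 rose, 1 fell and 5 did not pass the test described below. Of all 55 lysosomal genes 34.5% rose and 5.45% fell, and of all tested genes 10.8% and 7.91%. In 8 of the 9 the word lay before the start. A match is a description of the letters, not of binding.

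Stretches with this word are given for 3 genes that rose (LAMP1, GAA and GALNS), for the one that fell (CTSD) and for MCOLN1, the lysosomal calcium channel, which did not pass the test. They read 5′ to 3′ on the strand of the gene, in build GRCh38.p14, with the longer word or its reverse complement in capitals.
LAMP1 (chr13:113297033-113297230, plus strand): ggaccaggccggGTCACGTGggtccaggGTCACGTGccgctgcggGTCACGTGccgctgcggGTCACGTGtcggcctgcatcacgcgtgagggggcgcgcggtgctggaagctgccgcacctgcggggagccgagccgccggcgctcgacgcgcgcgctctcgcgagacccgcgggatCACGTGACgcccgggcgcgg
GAA (chr17:80101491-80101569, plus strand): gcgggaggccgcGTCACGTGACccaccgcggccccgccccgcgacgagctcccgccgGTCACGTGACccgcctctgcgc
GALNS (chr16:88856962-88857135, minus strand): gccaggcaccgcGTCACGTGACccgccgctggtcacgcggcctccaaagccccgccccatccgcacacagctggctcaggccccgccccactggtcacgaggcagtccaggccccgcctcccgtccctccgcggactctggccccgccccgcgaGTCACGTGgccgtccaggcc
CTSD (chr11:1763955-1763986, minus strand): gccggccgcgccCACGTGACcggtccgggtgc
MCOLN1 (chr19:7522569-7522623, plus strand): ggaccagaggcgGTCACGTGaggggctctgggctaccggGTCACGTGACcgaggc
The word stood 5 times before the start of LAMP1 and once before that of CTSD.

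Values are the authors' deposited normalized counts (reads per gene over the library's size factor), and the recovered reads summed to between 39574387 and 44585773 per library. AXL had 29189 and 30617 normalized counts in the siCt libraries and 8658 and 7141 in the siAxl libraries, or 26.4% of the siCt mean. Its log2 fold change was -1.93 (SE, the standard error of the fit, 0.0918, limma adjusted p = 0.000585). The line's mesenchymal markers VIM, MSN, CD44 and CAV1 were high in all libraries, and ESR1 and PGR had at most 3.25 normalized counts in any library. ERBB2 and EPCAM, listed as low in this line, had at least 2949 and 565. CDH1, also listed as low, had 90.1 and 94.3 normalized counts in siCt and 36.9 and 22.6 in siAxl, and fell (log2 fold change -1.64, limma adjusted p = 0.00847), while CAV1 (0.34) and ERBB2 (0.26) rose. Of the markers of leukocytes, endothelium and fibroblasts, PTPRC, CD163, VWF, PECAM1 and DCN had at most 16.7 normalized counts in any library. CD14 had 69.0 to 113, COL1A2 225 to 352 and CSF1R 213 to 399. CSF1R fell (log2 fold change -0.65) and COL1A2 rose (0.48), and the part of such cells in the results was not tested.

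Lysosomal genes were more often higher than lower after AXL knockdown. The 55 genes were chosen with earlier results of these data known, so their counts are a description of a chosen set. By limma on log2(normalized count + 1), with Benjamini-Hochberg adjustment over 16064 tested genes and a threshold of 0.05, 19 of the 55 rose and 3 fell, while 33 did not pass. Over all tested genes, 10.8% rose and 7.91% fell. The rises were between 0.23 and 0.69 on the log2 scale, so none of these genes doubled, and the members that fell were PPT1, CTSD and GM2A. All 55 genes passed the filter on low counts, and 43 had a log2 fold change above 0. The median of the 55 was 0.20, against -0.0022 over all tested genes, of which 49.7% were above 0. Both siAxl libraries lay above both siCt libraries for 37 of the 55 genes and below for 6, where 30.6% and 30.5% of all tested genes did so. For genes past the threshold, groups that do not overlap are seen in the libraries that gave the call, and add no support to it. With 2 libraries against 2, an exact permutation test of a single gene has 0.333 as its smallest two-sided p, and the adjusted p-values depend on limma's pooling of the spread over genes. Leaving out 1 library leaves its group with 1, which the fit assumes to vary like the other group and the genes at large, so calls lost or gained in such fits rest on less data. Fewer rose without siAxl 2, fewer fell without siAxl 1 and more fell without siCt 1. Shares of all tested genes in those fits are not given here, so their counts cannot be set against 10.8% and 7.91%. The median of the 55 was 0.158 to 0.201 with a library left out.

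**Figure D1:**
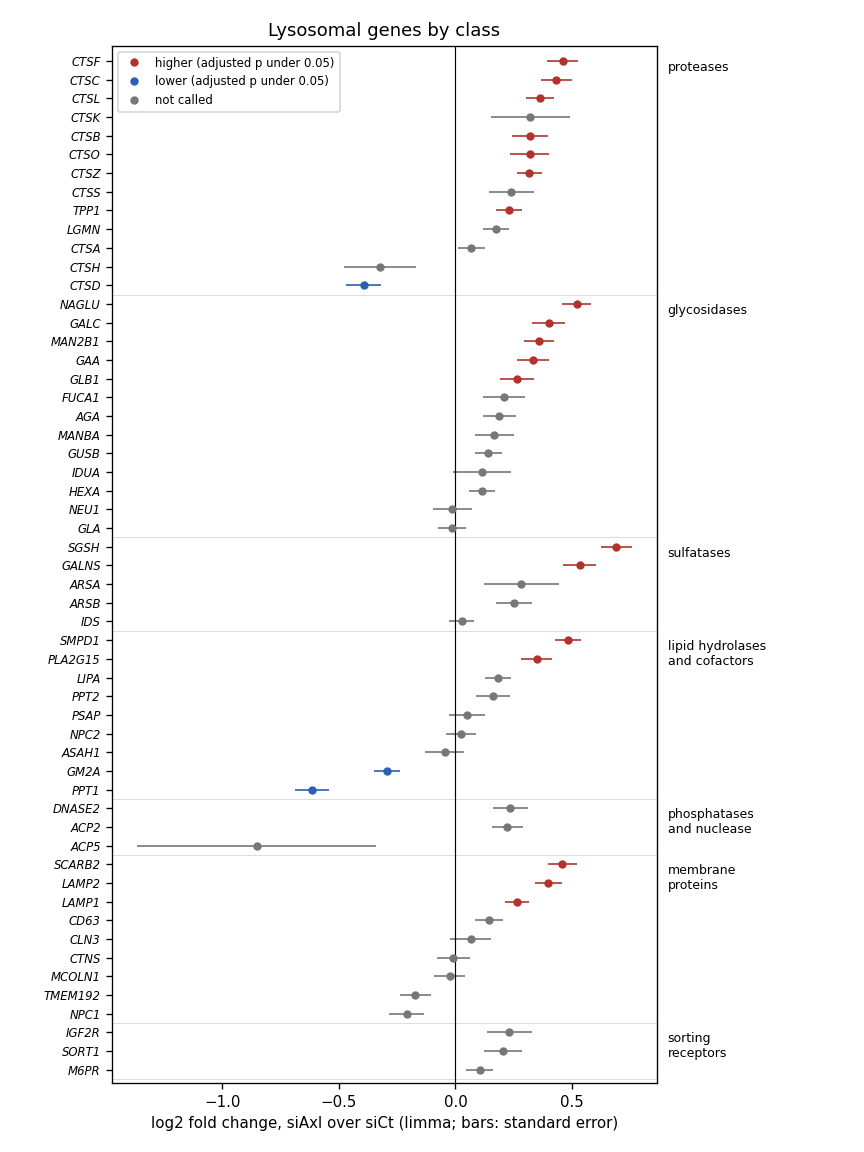
Log2 fold change of siAxl over siCt (horizontal axis) for each of the 55 lysosomal genes, ordered by value within its class. Points are limma estimates from 2 libraries per group and bars their standard errors, coloured by whether the gene rose (19), fell (3) or did not pass an adjusted p of 0.05.

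Of the 13 lysosomal proteases, 7 rose and 1 fell, with a median log2 fold change of 0.32. Over all tested genes 10.8% rose and 7.91% fell. The cysteine cathepsins CTSF, CTSC, CTSL, CTSB, CTSO and CTSZ rose, as did TPP1, a serine protease that trims tripeptides from protein ends. The aspartic protease CTSD fell. On the scale of normalized counts per kilobase of transcript, CTSD was the most abundant of all 55 genes, with 34499 in siCt and 26221 in siAxl.

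CTSF had 1648 and 1782 normalized counts in siCt and 2415 and 2302 in siAxl (log2 fold change 0.46, SE 0.0674, limma adjusted p = 0.00656). CTSC, a dipeptidyl peptidase, had 3352 and 3016 in siCt and 4304 and 4280 in siAxl (0.43, limma adjusted p = 0.00762). CTSL, an endopeptidase, had 4616 and 4760 in siCt and 5822 and 6244 in siAxl (0.36, limma adjusted p = 0.00916). For these 3 genes the groups did not overlap, and they stayed past the threshold in all 13 alternative fits. CTSZ, a carboxypeptidase and the second most abundant protease per kilobase, had 12269 and 12251 in siCt and 14889 and 15664 in siAxl (0.32, limma adjusted p = 0.0110). CTSB, which cuts both within proteins and at their ends, had 21563 and 24579 in siCt and 27693 and 29790 in siAxl (0.32, limma adjusted p = 0.0325). CTSO, a low-abundance cathepsin, had 429 and 419 in siCt and 525 and 533 in siAxl (0.32, limma adjusted p = 0.0410). TPP1 had 7108 and 7111 in siCt and 8082 and 8590 in siAxl (0.23, limma adjusted p = 0.0321). All siAxl values of these genes were above the siCt values.

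CTSD moved the other way. It had 69206 and 77277 normalized counts in siCt against 54634 and 56699 in siAxl (log2 fold change -0.39, SE 0.0740, limma adjusted p = 0.0143), so both siAxl libraries were below both siCt libraries. The remaining 5 proteases, CTSA, CTSH, CTSK, CTSS and LGMN, had log2 fold changes between -0.32 (CTSH, adjusted p = 0.192) and 0.32 (CTSK, adjusted p = 0.233) and did not pass in limma. Summed with CTSD included, the normalized counts of the 13 proteases were 137954 and 150393 in siCt and 137428 and 144300 in siAxl, and these ranges overlapped. Some protease calls were lost with 3 libraries. CTSO was lost whichever of the 4 was left out (adjusted p between 0.0505 and 0.171) and by DESeq2 (0.0933), while its log2 fold change stayed between 0.30 and 0.33. CTSD was lost without siCt 2 (log2 fold change -0.31, adjusted p = 0.0605) and without siAxl 1 (-0.37, 0.0626), and TPP1 without siCt 2 (0.23, 0.0690), siAxl 1 (0.27, 0.0730) or siAxl 2 (0.18, 0.186). CTSB was lost without siCt 1 (0.22, 0.106) or siAxl 2 (0.27, 0.126), and CTSZ without siAxl 2 (0.28, 0.0627). CTSH passed without siCt 1 (log2 fold change -0.51, adjusted p = 0.000223) and CTSS without siCt 2 (0.31, 0.0173).

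**Figure D2:**
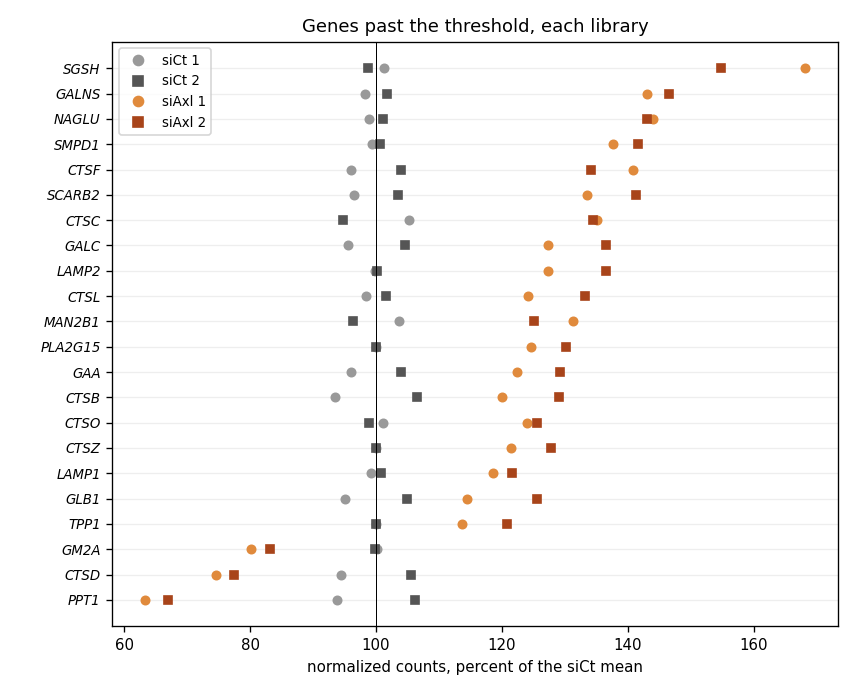
Normalized counts of the 22 genes that passed the threshold, as a percent of the siCt mean of each gene, with 1 point per library. In each of the 22 rows the siAxl points lie on one side of both siCt points, from SGSH at the top to PPT1 at the bottom. The genes were picked by a threshold on these same libraries, so this adds no support to the calls.

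Glycosidases, which cleave sugar chains, rose in 5 of 13 cases, against 10.8% of all tested genes. Their median log2 fold change was 0.19. By limma, 0 of them fell, against 7.91% of all tested genes. At an unadjusted limma p under 0.05 also 0 glycosidases fell, and edgeR and DESeq2 called 0 lower. The values below 0 were those of GLA (-0.017) and NEU1 (-0.013). NAGLU, which removes N-acetylglucosamine from heparan sulfate, had 1156 and 1181 normalized counts in siCt and 1683 and 1671 in siAxl (log2 fold change 0.52, SE 0.0625, limma adjusted p = 0.00360). It stayed past the threshold in all 13 alternative fits. GALC, which degrades galactosylceramide, had 2159 and 2364 in siCt and 2881 and 3088 in siAxl (0.40, limma adjusted p = 0.0116). The α-mannosidase MAN2B1 had 2994 and 2784 in siCt and 3794 and 3614 in siAxl (0.36, limma adjusted p = 0.0116). GAA, the acid α-glucosidase that degrades glycogen, had 1425 and 1544 in siCt and 1818 and 1919 in siAxl (0.33, limma adjusted p = 0.0209). The β-galactosidase GLB1 had 4143 and 4578 in siCt and 4990 and 5477 in siAxl (0.26, limma adjusted p = 0.0480). For all 5 the groups did not overlap.

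Per kilobase, the sialidase NEU1 was the most abundant glycosidase. It had 6495 and 7329 normalized counts in siCt and 6445 and 7253 in siAxl, so the groups overlapped (log2 fold change -0.013, SE 0.0824, limma adjusted p = 0.929). FUCA1, a fucosidase whose level per kilobase was next to that of GLB1, had 3095 and 3544 in siCt and 3572 and 4096 in siAxl (0.21, limma adjusted p = 0.158). The 8 glycosidases that did not pass in limma lay between -0.017 (GLA) and 0.21 (FUCA1). GLB1 was lost without siCt 1 (log2 fold change 0.19, adjusted p = 0.107), siAxl 1 (0.33, 0.0550) or siAxl 2 (0.20, 0.209), GAA without siAxl 2 (0.29, 0.0957) and MAN2B1 without siAxl 1 (0.32, 0.0562). FUCA1 passed without siCt 2 (log2 fold change 0.31, adjusted p = 0.0129).

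SGSH and GALNS, which had the largest rises of the 55 genes, are sulfatases, enzymes that remove sulfate from glycosaminoglycans and sulfolipids. All 5 sulfatases had log2 fold changes above 0, with a median of 0.28. The other 3 did not pass the threshold, and of all tested genes 10.8% rose. SGSH, the sulfamidase of heparan sulfate breakdown, had 1474 and 1437 normalized counts in siCt and 2447 and 2252 in siAxl (log2 fold change 0.69, SE 0.0672, limma adjusted p = 0.00222), which was 161% of the siCt mean. GALNS, which acts on keratan sulfate and chondroitin 6-sulfate, had 782 and 809 in siCt and 1138 and 1166 in siAxl (0.53, limma adjusted p = 0.00456). Both groups were well apart in these 2 genes, and both passed in all 13 alternative fits. IDS, the iduronate sulfatase and the most abundant of the class per kilobase, had 19917 and 19685 in siCt and 20010 and 20328 in siAxl (0.027, SE 0.0529, limma adjusted p = 0.771). ARSB had a log2 fold change of 0.25 (adjusted p = 0.0630) and ARSA of 0.28 (0.266).

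The sulfatase values carry some limits from shared exons. By GENCODE release 29, SGSH shares 8 exon bases with SLC26A11 on the other strand, a neighbour with 22.6% of its reads that also rose (log2 fold change 0.47, limma adjusted p = 0.0278). GALNS shares 27 with TRAPPC2L, which had a mean of 985.5 reads per library against 980.5 for GALNS, and a log2 fold change of -0.075 (adjusted p = 0.509). Genes of other classes also share exon bases with genes on the other strand. M6PR shares 1105 with PHC1, NPC1 604 with RMC1, ACP2 189 with NR1H3 and LIPA 65 with IFIT2. ACP5 shares 3 with ZNF627, which had 5382% of its reads and rose (log2 fold change 0.33). Whether reads were counted by strand is not given in the sources used here. The median of the sulfatases rested on few genes and was 0.48 without siCt 1 and 0.47 without siAxl 2. Without siCt 1, ARSA (0.48, adjusted p = 0.00151) and ARSB (0.28, 0.0174) passed, and without siAxl 1 ARSB did (0.35, 0.0468).

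Of the 9 lipid hydrolases and lipid-binding cofactors, 2 rose and 2 fell, where 10.8% and 7.91% of all tested genes did. Their median log2 fold change was 0.051. SMPD1, the acid sphingomyelinase, had 2506 and 2537 normalized counts in siCt and 3469 and 3570 in siAxl (log2 fold change 0.48, SE 0.0555, limma adjusted p = 0.00329). The phospholipase PLA2G15 had 1060 and 1061 in siCt and 1321 and 1380 in siAxl (0.35, limma adjusted p = 0.0149). Both genes were higher in each siAxl library.

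PPT1, the thioesterase that removes palmitate from proteins, had 4702 and 5317 normalized counts in siCt and 3173 and 3357 in siAxl. Its log2 fold change of -0.62 (SE 0.0737, limma adjusted p = 0.00360) was the largest fall among the genes that passed, and it passed in all 13 alternative fits. The exons of PPT1 share 1189 bases with those of CAP1 on the other strand, a gene with 672% of its reads whose log2 fold change was -0.020 (adjusted p = 0.836). GM2A, the activator protein that presents ganglioside GM2 to hexosaminidase A, had 4059 and 4044 in siCt and 3247 and 3368 in siAxl (-0.29, limma adjusted p = 0.0142). The libraries of the groups were again apart.

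PSAP, the precursor of the saposins, was the second most abundant of all 55 genes per kilobase (20624 in siCt and 21332 in siAxl). It had 55702 and 62762 normalized counts in siCt and 59268 and 63264 in siAxl, with a log2 fold change of 0.051 (SE 0.0784, limma adjusted p = 0.700). NPC2, which carries cholesterol within the lysosome, had 7549 and 8035 in siCt and 7588 and 8261 in siAxl (0.024, limma adjusted p = 0.836). In both genes the groups overlapped. The 5 members that did not pass in limma lay between -0.046 (ASAH1, the acid ceramidase) and 0.18 (LIPA, the acid lipase, adjusted p = 0.0648). LIPA passed with TMM scaling in limma (adjusted p = 0.0406). The class median turned to -0.0213 without siCt 1 and was 0.118 without siCt 2, 0.098 without siAxl 1 and 0.0034 without siAxl 2. GM2A was lost without siAxl 1 (log2 fold change -0.27, adjusted p = 0.0851) and PLA2G15 without siAxl 2 (0.32, 0.0815).

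None of the 3 phosphatase and nuclease genes passed in limma, edgeR or DESeq2, and 2 had an unadjusted limma p under 0.05 (ACP2 and DNASE2). DNASE2, which degrades DNA in lysosomes, had 1794 and 1998 normalized counts in siCt and 2155 and 2305 in siAxl (log2 fold change 0.24, SE 0.0751, limma adjusted p = 0.0708). The acid phosphatase ACP2 had 1754 and 1624 in siCt and 2006 and 1933 in siAxl (0.22, limma adjusted p = 0.0606). Both were higher in each siAxl library without passing, and 30.6% of all tested genes were higher in this way. ACP5, an acid phosphatase known from osteoclasts and macrophages, was the least abundant of the 55 genes, with 9.59 and 23.8 normalized counts in siCt and 5.83 and 10.8 in siAxl, and its groups overlapped (-0.85, SE 0.513, limma adjusted p = 0.291). Without siCt 1, ACP2 (adjusted p = 0.0228) and ACP5 (log2 fold change -1.47, 0.0300) passed, and without siCt 2 DNASE2 did (0.31, 0.0136).

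Of the 9 membrane proteins 3 rose, against 10.8% of all tested genes, and the median log2 fold change was 0.065. By limma, edgeR and DESeq2 0 of the 9 fell, where 7.91% of all tested genes fell by limma. At an unadjusted limma p under 0.05 NPC1 and TMEM192 were the 2 lower genes. The genes that rose encode abundant glycoproteins of the lysosomal membrane. SCARB2, the receptor that carries β-glucocerebrosidase to lysosomes, had 7615 and 8164 normalized counts in siCt and 10529 and 11149 in siAxl (log2 fold change 0.46, SE 0.0615, limma adjusted p = 0.00497). LAMP2 had 10146 and 10163 in siCt and 12931 and 13867 in siAxl (0.40, limma adjusted p = 0.00622). LAMP1 had 10629 and 10816 in siCt and 12713 and 13045 in siAxl (0.26, limma adjusted p = 0.0170). The groups did not overlap in these genes, and SCARB2 and LAMP2 passed in all 13 alternative fits.

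CD63, a tetraspanin of late endosomes and the most abundant membrane protein gene per kilobase, had 13292 and 14255 normalized counts in siCt and 14876 and 15528 in siAxl (log2 fold change 0.14, SE 0.0602, limma adjusted p = 0.145). NPC1, which takes up cholesterol from NPC2, had the lowest value of the class, -0.21 (limma adjusted p = 0.0980). Its siAxl libraries were both below both siCt libraries, as in 30.5% of all tested genes. The channel MCOLN1, the cystine exporter CTNS, CLN3 and TMEM192 lay between -0.17 (TMEM192) and 0.065 (CLN3). LAMP1 was lost without siAxl 1 (log2 fold change 0.28, adjusted p = 0.0660) or siAxl 2 (0.25, 0.0920), and NPC1 passed without siCt 1 (log2 fold change -0.30, adjusted p = 0.0128). The class median was 0.0084 without siAxl 1 and 0.112 without siAxl 2.

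The 3 sorting receptors had log2 fold changes above 0 and did not pass in limma, edgeR or DESeq2, and 2 (SORT1 and IGF2R) had an unadjusted limma p under 0.05. SORT1 had 8826 and 9921 normalized counts in siCt and 10128 and 11477 in siAxl (log2 fold change 0.20, SE 0.0830, limma adjusted p = 0.133). M6PR had 3494 and 3591 in siCt and 3727 and 3887 in siAxl (0.10, limma adjusted p = 0.246). IGF2R had 14780 and 17722 in siCt and 17949 and 20120 in siAxl (0.23, limma adjusted p = 0.143). In all 3 genes both siAxl libraries were above both siCt libraries, as they were in 30.6% of all tested genes. Without siCt 2, SORT1 (0.29, adjusted p = 0.0213) and IGF2R (0.36, 0.00503) passed. The class median of 0.20 was 0.10 without siCt 1 and 0.11 without siAxl 2.

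**Figure D3:**
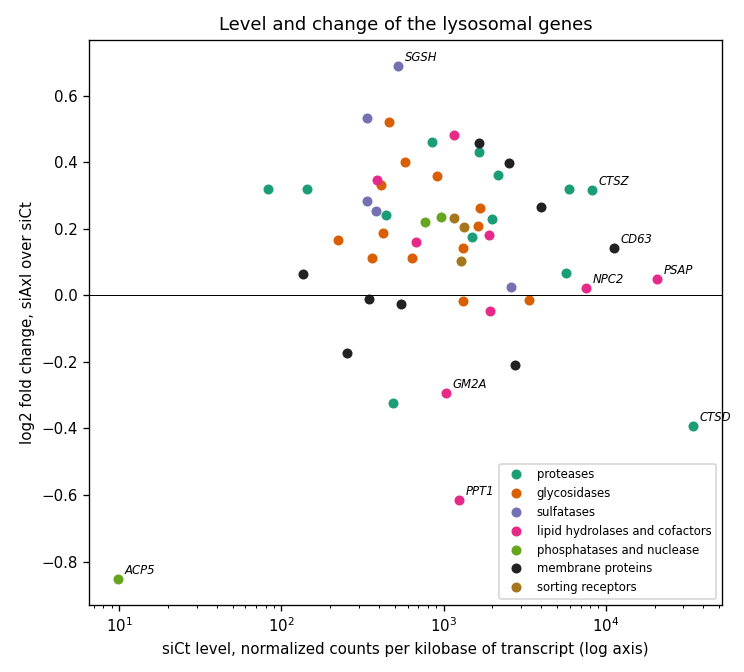
Log2 fold change of siAxl over siCt (vertical axis) against the siCt level in normalized counts per kilobase of transcript (horizontal log axis) for the 55 lysosomal genes, 1 point per gene coloured by class. CTSD lies furthest to the right and below 0, PSAP, CD63 and NPC2 lie near 0, and SGSH is the highest point.

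Levels of the 55 genes, taken per kilobase of transcript as the mean of all 4 libraries, ran from 30360 for CTSD to 7.37 for ACP5. CTSD and PSAP were followed by CD63, CTSZ and NPC2. Of these 5, CTSZ rose, CTSD fell and the others did not pass. Summed over all 55 genes, the normalized counts were 372622 and 402674 in siCt and 394173 and 416629 in siAxl, so the ranges of the groups overlapped.

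Other genes of the pathway were taken from 5 lists with 72 genes, of which 68 were tested. Over all tested genes 10.8% rose and 7.91% fell. Of the 68 genes in these lists, 23 rose (33.8%) and 1 fell (1.47%), with a median log2 fold change of 0.17. Fewer of them rose without siAxl 2 or without siAxl 1. Shares of all tested genes in those fits are not given here, so their counts cannot be set against 10.8%. Among 21 tested further enzymes, 7 rose, with a median of 0.20, and 0 fell by limma, edgeR or DESeq2 or at an unadjusted limma p under 0.05. Among them were HYAL3 (log2 fold change 0.45) and HYAL2 (0.29), of the hyaluronidase family, ARSK (0.44), a sulfatase, the carboxypeptidases PRCP (0.29) and SCPEP1 (0.28), and GRN (0.24), the precursor of the granulins. HYAL3 did not pass by DESeq2 (adjusted p = 0.0737). Among 26 further membrane proteins, 9 rose, with a median of 0.17. By limma, edgeR and DESeq2 0 of these fell, and SLC29A3, SLC36A1 and MFSD8 were lower at an unadjusted limma p under 0.05. LMBRD1 (0.55) and ABCD4 (0.31) take part in the export of vitamin B12 from lysosomes, and HGSNAT (0.52) acetylates heparan sulfate for its breakdown. MFSD1 (0.43), SIDT2 (0.32), LAPTM5 (0.30), LAPTM4A (0.28), the cation transporter ATP13A2 (0.24) and the sialic acid exporter SLC17A5 (0.22) also rose.

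Of the 10 genes of enzyme tagging and transport, 3 rose, and 0 fell by limma, edgeR or DESeq2 or at an unadjusted limma p under 0.05. By limma 10.8% of all tested genes rose and 7.91% fell. SUMF1, which activates sulfatases by modifying a cysteine in their active site, had 945 and 1058 normalized counts in siCt and 1362 and 1479 in siAxl (log2 fold change 0.51, SE 0.0837, limma adjusted p = 0.00960). LMAN1 (0.24) and MCFD2 (0.24), a cargo receptor pair of the early secretory pathway, rose as well. Their limma adjusted p-values were 0.0458 and 0.0493, and each passed in 9 of 13 alternative fits. GNPTAB (0.023) and GNPTG (0.029), subunits of the enzyme that makes the mannose 6-phosphate tag, did not pass.

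Among the transcription factors known to bind the CLEAR element, TFE3 rose. It had 6355 and 5883 normalized counts in siCt and 7359 and 7122 in siAxl (log2 fold change 0.24, SE 0.0603, limma adjusted p = 0.0331). TFE3 passed in 9 of 13 alternative fits, and its log2 fold change was 0.19 to 0.30 with a library left out. TFEB had 385 and 381 in siCt and 467 in both siAxl libraries (0.28, limma adjusted p = 0.0637), and MITF had 1621 and 1782 in siCt and 1362 and 1489 in siAxl (-0.26, limma adjusted p = 0.0629). The groups did not overlap for any of these, with TFEB higher and MITF lower in siAxl, but TFEB and MITF did not pass. Both siAxl libraries were above both siCt libraries in 30.6% of all tested genes and below in 30.5%. Transcript levels do not show where these factors are in the cell.

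Cystatins, inhibitors of cysteine cathepsins, had 3 genes that rose and 1 that fell among the 7 tested. Shares over all tested genes were 10.8% and 7.91%. CST1 had 36207 and 39726 normalized counts in siCt and 63610 and 64806 in siAxl (log2 fold change 0.76, SE 0.0677, limma adjusted p = 0.00184). CST4 had 9162 and 9826 in siCt and 12138 and 12377 in siAxl (0.37, limma adjusted p = 0.00816), and CST6 46.0 and 43.3 in siCt and 78.7 and 81.6 in siAxl (0.83, limma adjusted p = 0.0223). CST2 had 1879 and 2300 in siCt and 1545 and 1684 in siAxl (-0.37, limma adjusted p = 0.0483). CST2 passed in 7 of 13 alternative fits, by DESeq2 (adjusted p = 0.0144) but not by edgeR with TMM (0.0502). CST6 passed by edgeR with TMM (adjusted p = 0.0225) but not by DESeq2 (0.0772). CST1, CST2 and CST4 are close copies of each other, so how their reads were split is uncertain.

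**Figure D4:**
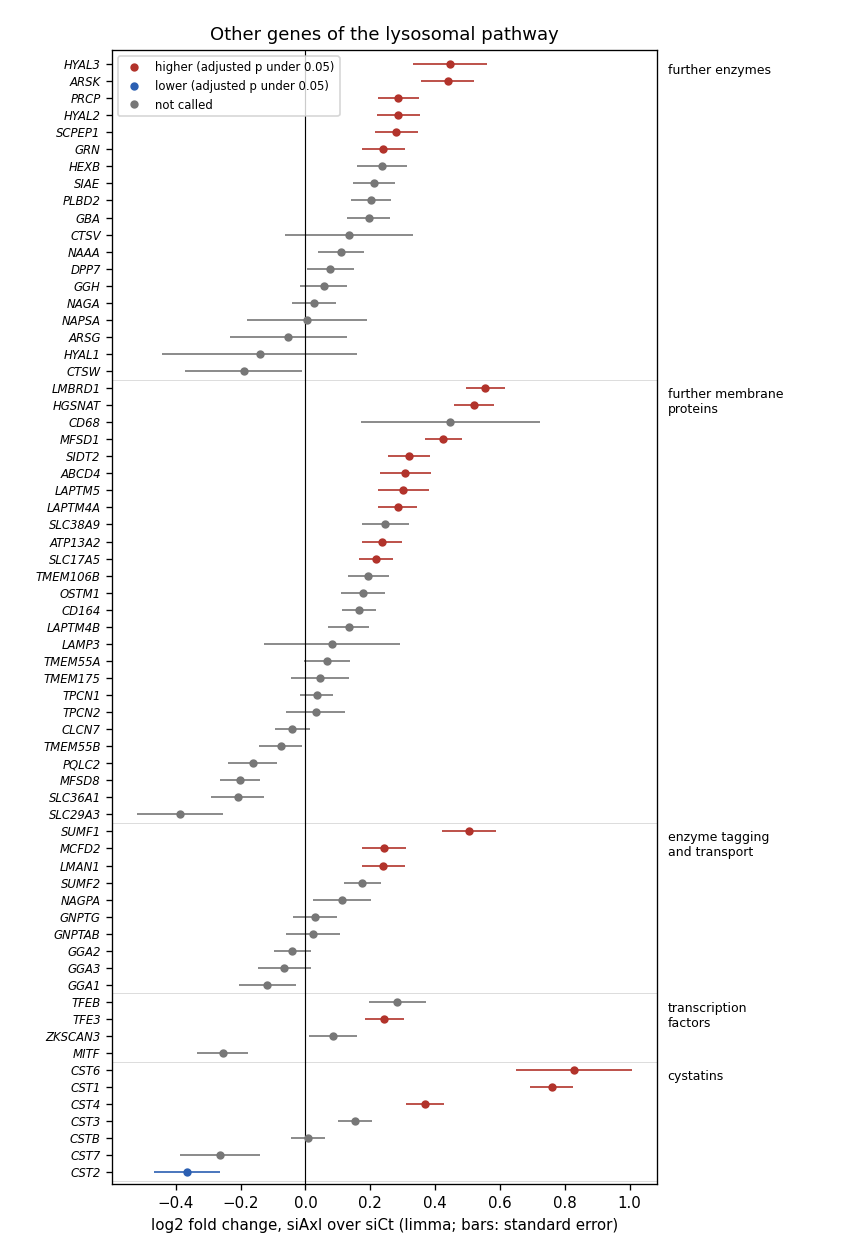
Log2 fold change of siAxl over siCt (horizontal axis) with standard errors for 66 tested genes of the 5 other lists, ordered by value within each list. Of the genes shown, 22 rose and 1 fell at an adjusted p of 0.05, and CST6 and CST1 have the highest values.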

How the data were processed

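RNA of 2 siCt and 2 siAxl libraries was sequenced by the authors on an Illumina platform. The submitters' processing notes name CASAVA 1.8, TopHat2 2.0.10, HTSeq 0.5.3, DESeq2 1.4.5 and GRCh37, and the strand setting is not given in the sources used here. The authors deposited 1 table of signal values, which are read counts per gene over each library's DESeq2 size factor. In each library 100% of the values were whole multiples of 1 read (within 0.05 reads), and reads were recovered by division. The table's further columns hold the authors' fold changes and p-values and were not used, and 0 per-sample columns were left out.

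The 16064 genes passing edgeR's filterByExpr were tested with limma 3.58.1 (eBayes with trend) in R 4.3.3 on log2(normalized count + 1), where the added 1 shrinks fold changes of genes with few reads. edgeR 4.0.16 and DESeq2 1.42.0 on the recovered reads, other scalings, pseudocounts, filters, a replicate block and leaving out each library were alternatives. Simulated data served only to check that the fits recover set fold changes, and the rate of false calls is not given here. Replicates differed by more than sampling noise (chi-square per gene 21.86 in siCt and 19.75 in siAxl).

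The members and lists were chosen with earlier results of these data known. Genes past the threshold and the 2 highest genes per kilobase of each class are given by library, the others by counts and ranges, and further-list genes past the threshold are named, except that some items are not reported here. Levels used the longest principal coding transcript of GENCODE 29. This length replaced the merged exons of all transcripts after levels by the latter had been seen. By merged exons, 11 of the 14 highest genes were among the highest, with LAMP2, FUCA1 and IGF2R in place of LAMP1, GLB1 and M6PR, and all 6 are given by library. Exon overlaps came from the same annotation by Ensembl identifier, which held 82.5% of the identifiers.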

Additional observations from a re-analysis of the deposited data

How the results depend on the processing

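Of the 19 genes that rose and 3 that fell, all passed with TMM scaling, with edgeR under both scalings, with pseudocounts of 0.5 and 8 and with a mean of at least 100 normalized counts, and DESeq2 lost CTSO. Testing every gene with at least 1 read left 12 that rose, and 7 in the further lists, and lost CTSD, TPP1, CTSO, CTSB, GLB1, GAA, GALC and LAMP1. At an adjusted p under 0.01, 9 rose and 1 fell, and 6 of the further lists rose. With each library left out in turn, 11 to 22 genes rose, 1 to 6 fell, and 7 to 20 rose in the further lists. The median of all 55 genes was then 0.158 to 0.201, that of the proteases 0.225 to 0.328, of the sulfatases 0.221 to 0.475, of the lipid class -0.0213 to 0.118 and of the membrane proteins 0.0084 to 0.112. The cause was not tested. Shares of all tested genes that passed in these alternative fits are not given here, so the counts cannot be set against them.

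Single genes turned sign when a library was left out, with ranges of -0.036 to 0.0025 for GLA, -0.10 to 0.074 for NEU1, -0.058 to 0.28 for IDUA, -0.15 to 0.057 for ASAH1, -0.038 to 0.085 for NPC2, -0.036 to 0.14 for PSAP and -0.044 to 0.024 for CTNS. None of them passed the threshold in limma.

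Labels number the replicates 1 and 2 in each group but do not say that a number marks a shared batch. Deviations of same-numbered libraries from their group means correlated at 0.27. With 2 libraries per group both pairs must give this same value, so its spread is unknown. The chi-square per gene across groups was 35.65 and 43.08 between libraries of the same number. Between those of different numbers it was 50.32 and 64.03. Whether a number marks a shared batch was not tested. With a replicate block 37 genes rose and 6 fell, and 36 of the further lists rose. The share of all tested genes that passed in this fit is not given here, so these counts cannot be read as particular to lysosomal genes.

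With 2 libraries per group the spread of a single gene is known poorly, and ACP5 is limited by counts as low as 5.83.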

Other observations

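Heparan sulfate is taken apart in lysosomes by a fixed series of enzymes, and genes of this series were drawn together after their values were seen, so they are a description with no test of their own. In the fit over all genes, SGSH (log2 fold change 0.69), NAGLU (0.52), HGSNAT (0.52) and ARSK (0.44) rose. SUMF1 (0.51), which is no enzyme of the series but activates sulfatases, rose as well. IDUA (0.11), IDS (0.027), GUSB (0.14) and ARSG (-0.053) did not pass in limma. HGSNAT, the acetyltransferase, had 2967 and 2738 normalized counts in siCt and 4051 and 4129 in siAxl (limma adjusted p = 0.00353).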
